A study of Mus musculus with 6 samples.

Results

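Presentation of antigen on MHC class II was examined through the transcripts of 9 genes in the adipocyte fraction of mouse epididymal fat. The genes were Ciita, H2-Aa, H2-Ab1, H2-Eb1, Cd74, H2-DMa, H2-DMb1, H2-DMb2 and Cd86. They were taken by symbol from a table of 35122 genes, and all 9 were listed there and had enough counts to be tested.

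The comparison was between 3 male PU.1_flox mice (control) and 3 male AdipoqCre_PU.1_flox mice (aPU.1KO) on a C57BL/6 background, with 1 RNA library for each mouse. PU.1, encoded by Spi1, is a transcription factor of myeloid and B cells, and the question was which adipocyte transcripts depend on it. Both groups carried Spi1 alleles with an exon between loxP sites, and the aPU.1KO mice also carried Cre under the adiponectin promoter and enhancer, which act in adipocytes. All mice were labelled as 10 to 11 months old and were fed standard chow. The adipocyte fraction is the floating layer of collagenase-digested fat, and it was not sorted.

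MHC class II molecules are pairs of an alpha and a beta chain that display peptides from endosomes to CD4 T cells. Dendritic cells, B cells and macrophages carry most of them, and adipocytes have also been described to express them. The invariant chain Cd74 holds the peptide groove of a new class II pair until the DM proteins exchange its remnant for antigenic peptide. Ciita is the co-activator that these genes share. It does not bind DNA itself and acts on proteins that sit on the X and Y boxes of class II promoters. Cd86 is a costimulatory ligand of T cells and lies outside the class II locus.

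Total counts ran from 20550252 to 24310144 in the aPU.1KO libraries and from 22770714 to 69283842 in the control libraries, so that 1 count was worth between 0.0138 and 0.0508 CPM, the unit of normalized counts (the share of a library's counts, scaled by TMM factors). Spi1 had 24.3, 6.35 and 26.7 CPM in control mice 1, 2 and 3 and 3.2, 1.22 and 4.17 CPM in aPU.1KO mice 1, 2 and 3. The groups did not overlap, and control mouse 2 lay nearest to the aPU.1KO mice. The log2 fold change of Spi1 (aPU.1KO over control, as throughout) was -2.75 ± 0.64 (SE), with an adjusted p of 0.0788 in edgeR's quasi-likelihood test and of 7.65e-05 in DESeq2. Adipocyte markers were present in every library, at a summed level of 25652 to 28289 CPM in the control mice and 30510 to 33713 CPM in the aPU.1KO mice.

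For 8 of the 9 presentation genes the highest aPU.1KO value was under the lowest control value, which also held for 15.5% of the 13925 genes tested. The same 8 had an unadjusted p under 0.05 in edgeR with a negative fold change, against 13.7% of all genes. None passed an adjusted p of 0.05 in edgeR, where 0.180% of all genes passed as lower. DESeq2 called 7 of the 9 lower at an adjusted p under 0.05, against 7.48% of the 16684 genes to which it gave an adjusted p. The log2 fold changes ran from -2.09 to -0.53 with a median of -1.54, and the median over all genes tested was 0.01. Without control mouse 2, the control with the lowest values, edgeR called 6 of the 9 lower at an adjusted p under 0.05 (Ciita, H2-Aa, H2-Ab1, H2-Eb1, Cd74 and H2-DMa), against 6.93% of all genes. With any other mouse left out it called 0 of the 9 at an adjusted p, and 7 or 8 at an unadjusted p under 0.05. Across all genes these fits called 0 to 3 lower at an adjusted p under 0.05. At an unadjusted p under 0.05 they called 1136 to 2121 lower.

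**Figure D1:**
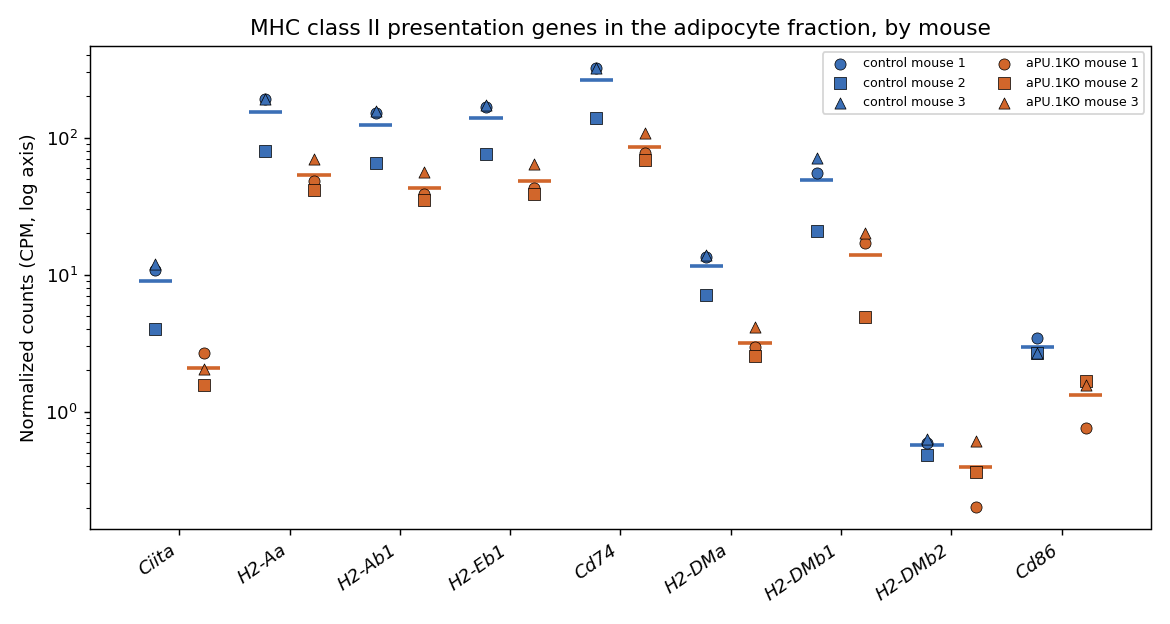
Normalized counts (CPM, log axis) of the 9 presentation genes in each mouse. Points are mice and horizontal bars are group means of 3. Control mouse 2 is the lowest control for all genes, and H2-DMb2 is the 1 gene whose groups overlap.

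Ciita, the class II transactivator (ENSMUSG00000022504; chromosome 16, 10480059 to 10528418, plus strand, GRCm38), had 10.9, 4.03 and 11.9 CPM in the control mice. It had 2.69, 1.58 and 2.04 CPM in the aPU.1KO mice. All aPU.1KO values lay under the lowest control, and the highest of them was 66.9% of that control. The mean was 8.92 ± 4.26 CPM (SD, n = 3) against 2.1 ± 0.559 CPM. On the log2 scale the fold change was -2.09 ± 0.44, and the adjusted p was 0.0768 in edgeR and 0.000115 in DESeq2. It was the most negative of the 9 genes. Its exons share 329 bases, 3.5% of their length, with Dexi on the opposite strand, and strand use in the counting was not stated.

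H2-Aa encodes the alpha chain of the I-A molecule (ENSMUSG00000036594; chromosome 17, 34282744 to 34287823, minus strand). It had 190, 79.9 and 193 CPM in the control mice and 48.4, 41.4 and 69.5 CPM in the aPU.1KO mice. The log2 fold change was -1.54 ± 0.36, with an adjusted p of 0.08 in edgeR and 0.000342 in DESeq2. H2-Ab1, its beta chain partner (ENSMUSG00000073421; chromosome 17, 34257689 to 34269419, plus strand), had 152, 65.7 and 156 CPM in the control mice and 39, 34.8 and 55.7 CPM in the aPU.1KO mice. Its log2 fold change was -1.53 ± 0.35, with an adjusted p of 0.0786 in edgeR and 0.000258 in DESeq2.

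H2-Eb1, the beta chain of I-E (ENSMUSG00000060586; chromosome 17, 34305867 to 34316674, plus strand), had 167, 75.9 and 173 CPM in the control mice. It had 42.7, 38.6 and 64.5 CPM in the aPU.1KO mice, a log2 fold change of -1.51 ± 0.35 that had adjusted p-values of 0.0786 in edgeR and 0.000258 in DESeq2. The 3 chains thus had the same order of mice: control mice 1 and 3 close together, control mouse 2 at 41.7% to 44.7% of their mean, and aPU.1KO mouse 3 the highest of its group. The alpha chain partner of H2-Eb1 is disrupted in C57BL/6 mice, which lack surface I-E. Its entry in this annotation, H2-Ea-ps, had 0 counts in all 6 libraries.

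Of the 5 genes whose RefSeq promoter windows were searched, the 4 with the X and Y boxes are printed here around the boxes, with H2-Ob for comparison, since these boxes are where the Ciita-bound complex assembles. Each stretch is written 5′ to 3′ on the strand of its gene, in GRCm38.p6. Capitals mark TGANG, the core of an X2 box, and TGATTGG, the Y box that NF-Y binds.
H2-Aa, chr17:34287857-34287911, minus strand: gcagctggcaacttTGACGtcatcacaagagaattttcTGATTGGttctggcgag
H2-Eb1, chr17:34305770-34305822, plus strand: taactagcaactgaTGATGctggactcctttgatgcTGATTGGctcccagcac
H2-DMb1, chr17:34153105-34153134, plus strand: TGATGctaggctgattcactcagTGATTGG
H2-DMb2, chr17:34145120-34145173, plus strand: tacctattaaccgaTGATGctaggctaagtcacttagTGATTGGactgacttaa
H2-Ob, chr17:34238812-34238862, plus strand: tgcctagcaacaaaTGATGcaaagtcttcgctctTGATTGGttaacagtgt

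The boxes start 24, 22, 23, 23 and 20 bases apart in these stretches, in the order printed. In windows of 250 bases before to 50 bases after the annotated start, searched on both strands, TGATTGG was in 7.82% of 32851 windows. TGANG starting 15 to 30 bases before TGATTGG was in 0.63% of them, with a spacing that was set after these sequences had been seen. The windows of H2-Aa, H2-Eb1, H2-DMb1 and H2-DMb2 hold the pair, and neither of the windows of H2-DMa holds TGATTGG. The windows of H2-Ob and H2-Eb2, class II-like genes outside the 9, also hold the pair, and that of H2-Oa holds TGATTGG without it. Genes with the pair were found among those with a log2 fold change of -1.80 (H2-DMb1) and among those at -0.53 (H2-DMb2), and H2-DMa, with no match, was at -1.85. The stretch of H2-DMb1 lies within the span that GENCODE M21 gives the gene, touches an annotated exon and precedes the RefSeq start. The windows of H2-Eb1 and H2-DMb1 each hold a further TGANG at an allowed distance from the same TGATTGG, and the one nearer to it is printed. A match describes these letters and is not evidence of binding. The promoters of Ciita, H2-Ab1, Cd74 and Cd86 were not searched here.

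Cd74, the invariant chain (ENSMUSG00000024610; chromosome 18, 60803848 to 60812652, plus strand), had the highest level of the 9 genes. It had 322, 139 and 323 CPM in the control mice and 77.4, 69 and 109 CPM in the aPU.1KO mice. Its mean was 262 ± 106 CPM against 85.1 ± 21 CPM, 3.07 times lower in the aPU.1KO mice by the fit. Its log2 fold change was -1.62 ± 0.35, with an adjusted p of 0.0775 in edgeR and 6.18e-05 in DESeq2. The 9 genes together held 0.0397% to 0.102% of all counts in the control libraries and 0.0177% to 0.033% in the aPU.1KO libraries.

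H2-DMa encodes the alpha chain of the peptide exchange protein DM (ENSMUSG00000037649; chromosome 17, 34119541 to 34139101, plus strand). It had 13.5, 7.09 and 13.9 CPM in the control mice and 2.95, 2.53 and 4.12 CPM in the aPU.1KO mice. The highest aPU.1KO mouse was at 58.1% of the lowest control, the widest such gap among the 9 genes. The log2 fold change was -1.85 ± 0.32, with an adjusted p of 0.0722 in edgeR and 5.79e-06 in DESeq2, the lowest of the 9 in both. Its exons share 360 bases, 10.4% of their length, with Brd2 on the opposite strand.

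H2-DMb1 and H2-DMb2 encode beta chains of DM. Their coding sequences, of 786 bases each, are 95.9% identical, and the longest stretch without a difference is 221 bases. The first 60 coding bases show how little separates the genes; the capital letter marks the 1 base that differs.
H2-DMb1: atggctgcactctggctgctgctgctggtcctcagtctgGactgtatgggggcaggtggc
H2-DMb2: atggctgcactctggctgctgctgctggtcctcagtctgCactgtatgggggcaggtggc

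A read inside an identical stretch can be assigned to either gene, so the split of counts between them is an estimate. By that split H2-DMb1 (ENSMUSG00000079547; chromosome 17, 34153072 to 34160230, plus strand) had 54.8, 20.7 and 70.8 CPM in the control mice and 17, 4.93 and 20.2 CPM in the aPU.1KO mice. Control mouse 2 and aPU.1KO mouse 3 almost met, the latter at 97.7% of the former. The log2 fold change was -1.80 ± 0.60, with an adjusted p of 0.13 in edgeR and 0.0946 in DESeq2. H2-DMb2 (ENSMUSG00000037548; chromosome 17, 34143307 to 34151555, plus strand) had 0.592, 0.482 and 0.635 CPM in the control mice and 0.203, 0.362 and 0.616 CPM in the aPU.1KO mice. These groups overlapped, and the log2 fold change of -0.53 ± 0.44 had an adjusted p of 0.489 in edgeR and 0.667 in DESeq2. The aPU.1KO values of H2-DMb2 rest on 4, 8 and 13 counts.

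Cd86 (ENSMUSG00000022901; chromosome 16, 36603869 to 36666081, minus strand) had 3.48, 2.67 and 2.7 CPM in the control mice and 0.762, 1.67 and 1.56 CPM in the aPU.1KO mice. Control mouse 2 was here level with control mouse 3, unlike for Ciita, the 3 chains, Cd74, H2-DMa and H2-DMb1. For Cd86 the log2 fold change was -1.15 ± 0.33, and the adjusted p was 0.104 in edgeR and 0.0231 in DESeq2.

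Levels of different genes were compared as CPM per kilobase of union exon. In the control mice Cd74 was highest, at 156 ± 63 CPM per kilobase, followed by H2-Eb1 at 71.3 ± 27.9, H2-Ab1 at 48.5 ± 19.8, H2-Aa at 40.7 ± 17 and H2-DMb1 at 29 ± 15.2. H2-DMa at 3.33 ± 1.1, Ciita at 0.935 ± 0.447, Cd86 at 0.806 ± 0.126 and H2-DMb2 at 0.326 ± 0.0452 CPM per kilobase followed. Within each control mouse the order from Cd74 to H2-DMb1 was the same. Between mice the ranges of neighbours in it overlapped, as control mouse 2 was low for each of these genes. Ciita and Cd86 also overlapped, with Ciita under Cd86 in control mouse 2, whereas H2-DMa and H2-DMb2 overlapped no neighbour. In the aPU.1KO mice Ciita, at 0.221 ± 0.0586 CPM per kilobase, was under Cd86 at 0.364 ± 0.136 in the mean. The order of the chains depended on the length used. By mean coding transcript length the chains in the control mice were in the order H2-Aa at 158, H2-Ab1 at 136 and H2-Eb1 at 97.5 CPM per kilobase. By both lengths Ciita was above Cd86 in aPU.1KO mouse 1 and under it in aPU.1KO mice 2 and 3, and the order of their means differed (0.605 for Ciita and 0.525 for Cd86 by coding transcript length).

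Within a library, the chains and Cd74 kept nearly fixed proportions. Over the 6 mice the log2 level of Cd74 spanned 2.23, whereas the log2 ratio to Cd74 spanned 0.15 for H2-Aa, 0.12 for H2-Ab1 and 0.19 for H2-Eb1. For these ratios the lowest aPU.1KO value was above the highest control value, with mean log2 differences of 0.08, 0.09 and 0.09. That order is no mark of the chains, since Cd74 itself was lower in the aPU.1KO mice and 76.5% of the other genes tested had it. The ratio of H2-DMa to Cd74 was lower in every aPU.1KO mouse, by a mean log2 difference of -0.26, an order found for 0.855% of the other genes tested. That share too depends on the fall of Cd74, since a gene had to fall further than Cd74 to show this order. An exact permutation test of 3 mice against 3 cannot give a two-sided p under 0.1, and the ratios are given as a description.

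Ciita, H2-DMb1, H2-DMb2 and Cd86 varied more against Cd74. The log2 ratio of Ciita to Cd74 was -4.89, -5.11 and -4.77 in the control mice and -4.84, -5.45 and -5.74 in the aPU.1KO mice, so the groups overlapped. H2-DMb1 had its lowest ratio, -3.81, in aPU.1KO mouse 2, and lay between -2.75 and -2.19 in the other libraries. The ratios of Cd86 and H2-DMb2 to Cd74 overlapped between the groups.

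**Figure D2:**
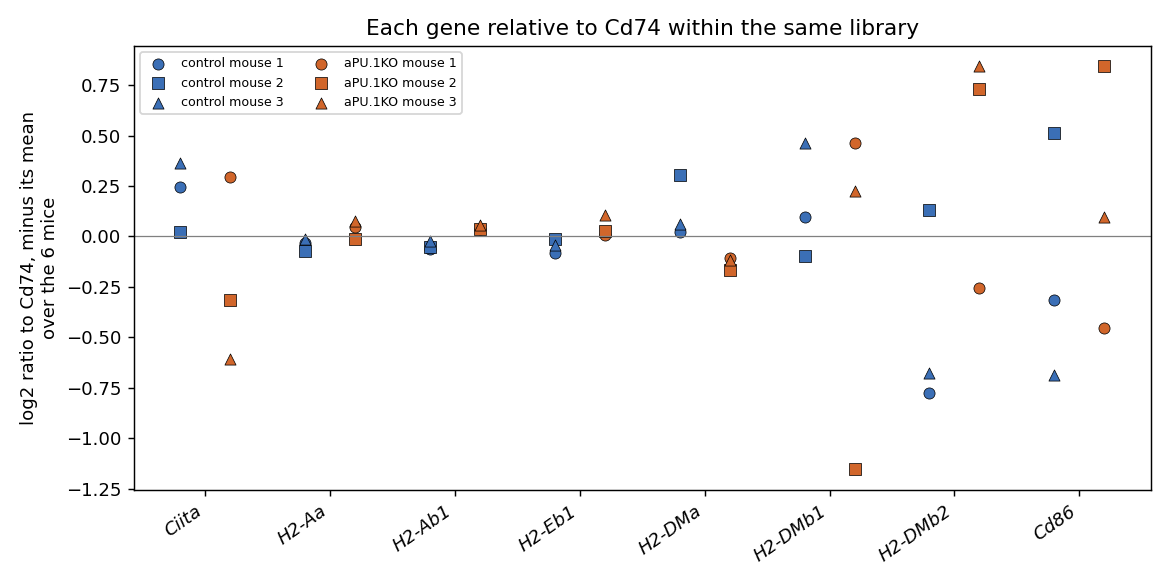
Log2 ratio of each gene to Cd74 in the same library, centred on its mean over the 6 mice (y axis). Points are mice, blue for control and orange for aPU.1KO; H2-Aa, H2-Ab1 and H2-Eb1 span 0.12 to 0.19 and H2-DMb1 spans 1.62.

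The genes whose levels ran most like those of the chains and Cd74 were ranked by the root mean square difference of centred log2 CPM over the 6 libraries, among 11889 genes outside the 9. They were C77080 (0.07), Plxnb2 (0.11), Pld4 (0.14), Metrnl (0.15), Cd9 (0.15), Ucp2 (0.15), Rftn1 (0.15) and Fcgr2b (0.15), where the median gene was at 0.89. Among the 9, H2-DMa was at 0.18, Ciita at 0.36, Cd86 at 0.53, H2-DMb1 at 0.55 and H2-DMb2 at 0.61. The genes most like Ciita among 13779, taken with a lower cut on abundance, were Dok2 (0.12), P2ry6 (0.13), Gm21188 (0.14), Pstpip1 (0.15) and Naip6 (0.16). Against Ciita, Cd74 was at 0.34 and the median gene at 1.13. The 6 points behind each value hold the group difference and share their libraries.

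Other genes of the class II pathway were taken from lists. Their counts at an unadjusted p under 0.05, and those of the marker lists, stand against the 13.7% of all genes tested that were lower and the 11.9% that were higher. In lists this short, 1 or 2 genes are too few to be told from that background. Of the proteins that bind the X and Y boxes, the RFX subunits, Creb1 and the NF-Y subunits, all 7 were tested. Of these, 1 had an unadjusted p under 0.05, and the list's median log2 fold change was 0.08. That gene was Nfya, at 25.2, 18.4 and 23.8 CPM in the control mice and 15.7, 18.2 and 15 CPM in the aPU.1KO mice (log2 fold change -0.46 ± 0.15, edgeR adjusted p = 0.117). Rfx5, the largest RFX subunit, had a log2 fold change of 0.12 ± 0.11, Nfyc of 0.17 ± 0.18 and Creb1 of -0.09 ± 0.11. Ciita, which acts on this complex, was at -2.09.

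Of 8 lysosomal genes that process antigen or the invariant chain, an unadjusted p under 0.05 and a negative fold change were found for 4, an adjusted p under 0.05 for 0 in edgeR and for 2 in DESeq2, and the median was -0.39. Ctss, the cathepsin that cleaves the invariant chain in professional antigen-presenting cells, had 280, 51.3 and 275 CPM in the control mice and 35.1, 9.58 and 37.7 CPM in the aPU.1KO mice. Its log2 fold change was -2.88 ± 0.75 (edgeR adjusted p = 0.0911, DESeq2 0.0141). Lgmn, an asparaginyl endopeptidase, was at -1.80 ± 0.44 (edgeR adjusted p = 0.0856). Ctsh at -0.67 ± 0.27 and Sppl2a, the protease that clears the last invariant chain fragment, at -0.25 ± 0.08 were closer to 0.

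Class II turnover was represented by 7 genes, 2 of them lower at an unadjusted p under 0.05, with a median of -0.14. March1, the ubiquitin ligase that sends class II and Cd86 proteins to degradation, had 9.03, 4.33 and 7.22 CPM in the control mice and 1.83, 1.54 and 2.46 CPM in the aPU.1KO mice. Its log2 fold change of -1.83 ± 0.33 had an adjusted p of 0.0724 in edgeR and 3.42e-05 in DESeq2. The clathrin adaptor subunits Ap2b1 and Ap2a1 were at -0.22 ± 0.07 and -0.15 ± 0.07, and the tetraspanin Cd82 at 0.12 ± 0.08.

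Of 9 other costimulatory and checkpoint ligands 6 had enough counts to be tested, and 4 of these were lower at an unadjusted p under 0.05, with a median of -1.25. They were Cd83, a surface marker of mature dendritic cells, at -2.48 ± 0.56 (edgeR adjusted p = 0.0786), Cd40, the receptor for T cell help, at -1.49 ± 0.31 (0.0764), Tnfsf9 at -1.45 ± 0.39 (0.0942) and Cd80, the relative of Cd86, at -1.05 ± 0.38 (0.147). Cd80 had 1.46, 0.832 and 1.63 CPM in the control mice and 0.457, 0.814 and 0.616 CPM in the aPU.1KO mice.

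Interferon-gamma induces Ciita in many cell types, and 9 genes of that route were tested. Among them 2 had an unadjusted p under 0.05 with a negative fold change, and the median was -0.04. These were Irf8, a myeloid and B cell factor, at -0.82 ± 0.20 (edgeR adjusted p = 0.0865) and the kinase Jak1 at -0.26 ± 0.11 (0.187). Irf1, an interferon-induced activator, had 67, 67.3 and 66.7 CPM in the control mice and 157, 410 and 43.9 CPM in the aPU.1KO mice. Its groups overlapped, and its log2 fold change was 1.60 ± 0.69 (edgeR adjusted p = 0.201). Socs1, an inhibitor of the route, was at 0.78 ± 0.47.

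The remaining class II-like genes were scarce. H2-Ob, a chain of the DM inhibitor DO, had 0.647, 0.657 and 0.793 CPM in the control mice and 0.254, 0.452 and 0.474 CPM in the aPU.1KO mice. Its log2 fold change was -0.81 ± 0.36 (edgeR adjusted p = 0.214). H2-Oa and H2-Eb2 had at most 5 counts in any library and were not tested.

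**Figure D3:**
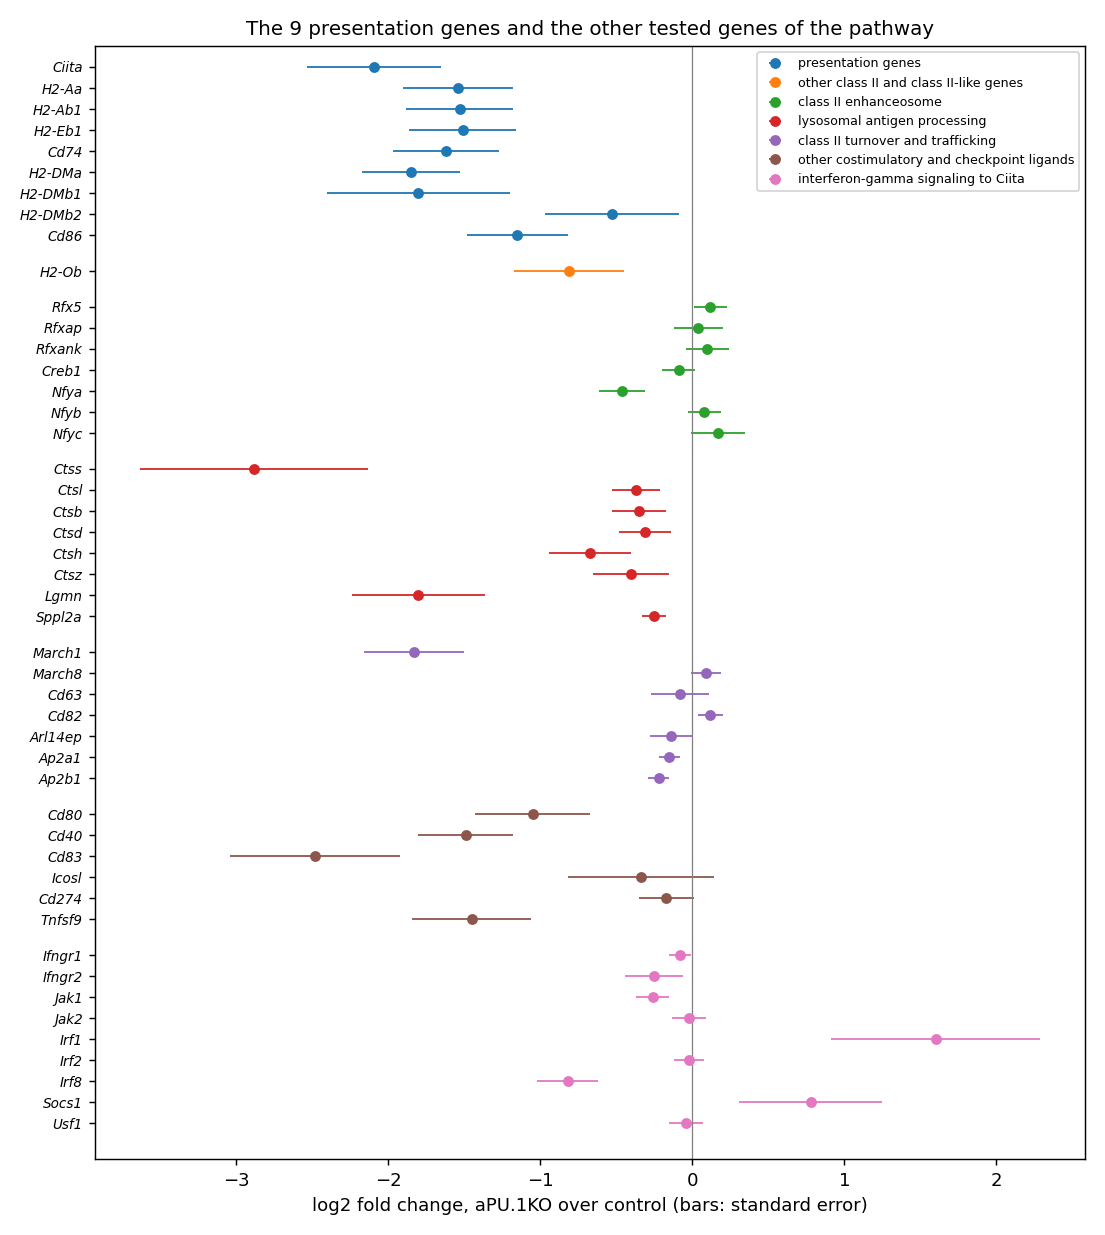
Log2 fold change, aPU.1KO over control, of the 9 presentation genes and of the other tested pathway genes, coloured by list. Points are edgeR estimates and bars are standard errors; the box-binding proteins lie between -0.46 and 0.17, and Ciita, Cd74 and the chains between -2.09 and -1.51.

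Of 15 macrophage markers 12 were lower at an unadjusted p under 0.05, with a median of -1.92. Cd163 at 0.29 ± 0.63 and Mertk at 0.06 ± 0.17 had positive log2 fold changes. Only Mrc1 passed an adjusted p of 0.05 in edgeR (0.0389), whereas DESeq2 called 12 of the 15 lower at that threshold. The summed macrophage markers, of which Lyz2, Csf1r, C1qb and Adgre1 were the most abundant, came to 1543, 502 and 1480 CPM in the control mice and 348, 275 and 329 CPM in the aPU.1KO mice. Dendritic cell markers, led by Itgax and Clec10a, summed to 54.7 to 126 CPM and 31.2 to 39.5 CPM, with 4 of 8 tested lower at an unadjusted p under 0.05 and Zbtb46 at -0.06 ± 0.14. Their part in the result was not tested, and in bulk RNA fewer cells of a type and less RNA per cell cannot be told apart.

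B cell markers, led by Cd22, Bank1 and Cd79a, summed to 6.39 to 10 CPM in the control mice and 3.93 to 6.92 CPM in the aPU.1KO mice, so that the groups overlapped, with 2 of 6 tested lower at an unadjusted p under 0.05. T cell markers summed to 3.81 to 9.44 CPM and 2.85 to 3.03 CPM, with 2 of 4 tested lower. For endothelial markers this was 2 of 8, for mesothelial markers 0 of 6 and for progenitor and fibroblast markers 5 of 8, with Pdgfrb passing an adjusted p of 0.05 in edgeR (0.0491). Of the adipocyte markers 6 of 8 were higher and 1, Lep, was lower at an unadjusted p under 0.05, where 11.9% of all genes tested were higher. No gene of these marker lists was at 3 or fewer counts in every library.

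Set against the summed macrophage markers of the same library, none of the 9 genes separated the groups. That sum was itself lower in the aPU.1KO mice, so a gene with steady levels would tend to separate them by this ratio. Of all genes tested 77.7% did so in one direction or the other. A gene that fell about as much as the sum would not, whatever the reason, and the ratios are given as a description. The log2 ratio of Cd74 to that sum was -2.26, -1.85 and -2.20 in the control mice and between -2.17 and -1.60 in the aPU.1KO mice. For Ciita it was -7.15, -6.96 and -6.96 in the control mice and -7.01, -7.44 and -7.34 in the aPU.1KO mice. Control mouse 2, the control with the lowest class II levels, had a macrophage marker sum at 33.3% and Spi1 at 24.9% of the mean of the other control mice.

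Spi1 is the gene that Cre targets and was itself lower in the aPU.1KO mice, so ratios to it are not independent of the design. The log2 ratio of Cd74 to Spi1 was 3.73, 4.46 and 3.60 in the control mice and 4.60, 5.82 and 4.71 in the aPU.1KO mice. The groups also did not overlap for H2-Aa, H2-Ab1, H2-Eb1 and H2-DMb1, with mean log2 differences of 1.20, 1.21, 1.21 and 0.80. The same order held for 85.6% of all other genes tested, so it says nothing particular about these genes. The groups overlapped for Ciita, H2-DMa, H2-DMb2 and Cd86.

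**Figure D4:**
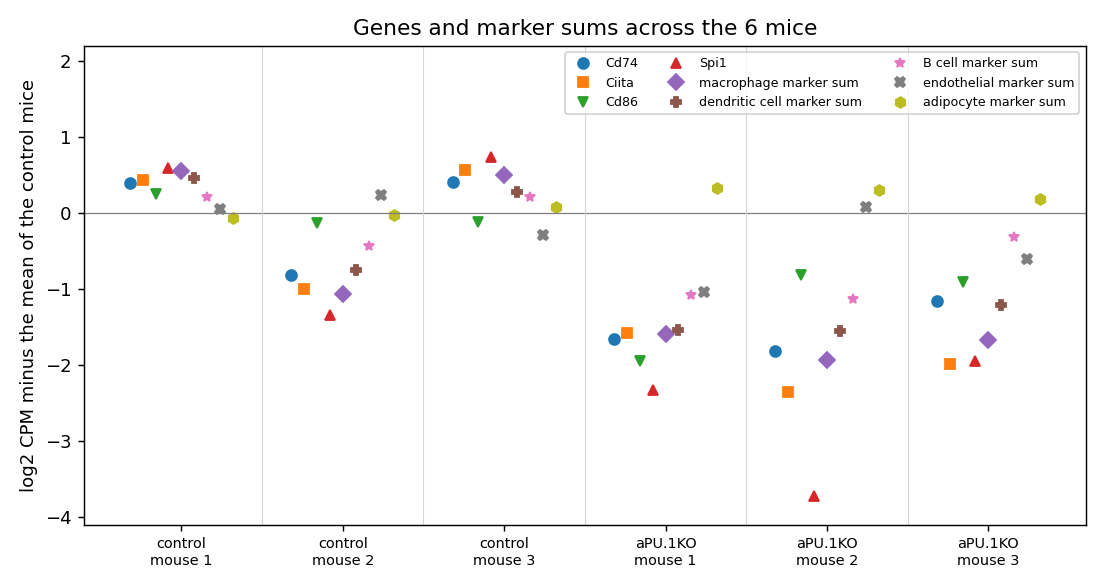
Log2 CPM of Cd74, Ciita, Cd86 and Spi1 and of summed marker lists in each mouse, minus the mean of the control mice (y axis). Cd74, Ciita, Spi1 and the macrophage and dendritic cell marker sums are low in control mouse 2 and lowest in the aPU.1KO mice, and the adipocyte marker sum is higher in the aPU.1KO mice.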

How the data were processed

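Libraries of the adipocyte fraction came from 6 mice, 3 a group. The authors quantified reads per transcript with Salmon (option validateMappings) and deposited estimated counts summed to genes, which were whole numbers. The build per the labels is GRCm38, and the Salmon version and annotation are not given in the sources used here. Of 35122 Ensembl identifiers 35031 matched a symbol in GENCODE M21, and the others held 0.0367% of counts. The study's text gives an age of more than 1 year.

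Counts were tested with edgeR 4.0.16 (R 4.3.3), by filterByExpr, TMM factors, glmQLFit and glmQLFTest, with Benjamini-Hochberg adjustment over 13925 genes. The common biological coefficient of variation was 0.194. DESeq2, the tool that the authors name without a version, ran on all genes in version 1.42.0. The alternatives were other scaling factors and filters, limma-voom 3.58.1, robust dispersion, the option legacy = FALSE, control library 1 thinned to 22770714 counts, each mouse left out, and H2-DMb1 and H2-DMb2 summed. No 2 libraries of a group were duplicates (chi-square per degree of freedom at least 20.4).

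The 9 genes and the lists were chosen with earlier results of these data known. Named beside them were the 4 genes of each pathway list with the lowest p, the most abundant markers, and the genes most alike in pattern. One gene of the interferon-gamma list is not reported here, and the list's counts leave it out. Reading frames were the longest in each GENCODE M21 transcript set, and promoters came from RefSeq.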

Additional observations from a re-analysis of the deposited data

How the results depend on the processing

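Over the alternatives run, all 135 log2 fold changes of the 9 genes were negative. The number of genes lower at an adjusted p under 0.05, 0 of 9 in the main edgeR fit, was 1 without a filter on low counts (H2-DMa, adjusted p = 0.0481), 7 in DESeq2 and between 0 and 6 with each mouse left out. Leaving out control mouse 2 gave the 6. Across all genes that count was 25, 125 without the filter, 1248 in DESeq2, 991 without control mouse 2 and 0 without control mouse 1. The number at an unadjusted p under 0.05 was between 7 and 8 throughout. Across all genes it was 1913 in the main fit, 1136 without control mouse 1 and 2553 without the filter. Ciita ran from -2.44 to -1.84 with each mouse left out, and its adjusted p from 0.000115 in DESeq2 to 0.313 without control mouse 1; the cause was not tested. The median of the mesothelial list ran from -0.95 to 0.02 with each mouse left out, positive without control mouse 2. H2-DMb2 could not be tested where every library needed 10 counts. H2-DMb1 and H2-DMb2 counted as 1 feature gave a log2 fold change of -1.78. No paired analysis was possible because the labels give no shared number or litter: the controls were littermates, but which mice shared a litter is not given in the sources used here. At this depth H2-DMb2 rested on 4 to 43 counts a library.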
